A study of Mus musculus with 6 samples.

Results

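The circadian clock genes examined here are the 10 genes Per1, Per2, Per3, Cry1, Cry2, Clock, Nr1d1, Nr1d2, Dbp and Tef, taken by symbol from the deposited count table of 56413 gene symbols. All 10 were in the table, and all 10 were among the 18716 genes that had enough counts to be tested. They were chosen as a group whose RNA levels follow the time of day, so that they can be read across libraries as a check on when tissue was collected. The sources used here give no time of collection.

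RNA came from fresh mouse splenocytes, the mixed cells of the spleen, with ribosomal RNA removed before sequencing. The protocol describes more than 1 library kit and sequencer, so which preparation these libraries had cannot be said. There were 3 wild-type (WT) libraries and 3 libraries from Top3b-knockout (Top3b-KO) cells, and no treatment was named for either group. Top3b encodes topoisomerase III-beta, an enzyme that acts on DNA and RNA and which the study examined for its part in immune regulation and tumour formation. The labels call each library a replicate of its genotype but do not say that each came from a separate animal, so p-values measure only the spread between these libraries. The sources used here give no strain, age, knockout allele or pooling of animals.

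The clock is a feedback loop of transcription. Clock, paired with Bmal1, binds E-box sequences and switches on the Per and Cry genes, whose proteins return to the nucleus and repress Clock and Bmal1. A second loop runs through Nr1d1 and Nr1d2, the nuclear receptors REV-ERB alpha and beta, which repress Bmal1 through the elements that ROR receptors bind. Dbp and Tef, bZIP transcription factors that act at D-boxes, carry the rhythm to other genes. In mouse peripheral tissues, spleen included, Dbp, Nr1d1 and the Per genes are high around the time of day when Bmal1 is low. A shift in collection time can therefore move these arms in opposite directions, though it need not move every gene alike.

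Exact spellings of 3 short motifs tied to this loop could be searched near the start of 9 of the 10 genes. These had 13 windows from 250 bases before to 50 after an annotated start, taken from RefSeq on GRCm38.p6. The counts themselves were made on mm39, and no position on that build was used. An E-box spelled CACGTG was present in 4 of the 13 windows, belonging to Per1, Cry1 and Tef. A D-box spelled TTATGTAA was present in 1 of the 13, that of Per3. Both strands were searched. Of all 32851 windows of the same length, 7.15% held the E-box and 0.938% the D-box. The following stretches show these elements on the strand of the gene, with the motif in capitals.
Per1, 166 bases before the start, chr11:69098771-69098800, plus strand: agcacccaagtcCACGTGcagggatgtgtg
Cry1, 60 bases before the start, chr10:85185097-85185126, minus strand: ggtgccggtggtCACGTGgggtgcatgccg
Tef, first start, 127 bases before it, chr15:81802534-81802563, plus strand: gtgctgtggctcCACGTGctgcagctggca
Tef, second start, 138 bases before it, chr15:81811264-81811293, plus strand: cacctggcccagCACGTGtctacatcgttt
Per3, 205 bases before the start, chr4:151044853-151044882, minus strand: ccgacccgcgcgTTATGTAAggtactcggg
Per3, 158 bases before the start, chr4:151044806-151044835, minus strand: acccgcccgcggTTATGTAAcccccgccgt
The core of the ROR element, AGGTCA, occurred in 3 of the 13 windows, belonging to Per1, Clock and Nr1d2, and in 16.3% of all windows. It is shown for Nr1d2, one of the REV-ERB genes.
Nr1d2, 77 bases before the start, chr14:18239166-18239195, minus strand: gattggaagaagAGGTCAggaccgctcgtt
None of the 3 motifs occurred in the windows of Cry2, Nr1d1 or Dbp. Other spellings and sequence outside the windows were not searched, so such elements may lie elsewhere in these genes. A match of letters is a description of the sequence and not a measured binding site.

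Depth differed between libraries, from 9941019 counts in Top3b-KO replicate 3 to 25473405 in the knockout replicate 2, with 15262063 to 15860288 in the WT libraries. Values below are depth-scaled counts (CPM) with TMM factors, which correct for differences in library composition. Top3b itself was at 86.9 to 95.1 CPM in WT and 48.2 to 51.5 CPM in the knockout, so it was lower in 3 of 3 knockout libraries but still had counts. Markers of B cells, T cells, neutrophils, red pulp macrophages, erythroid and NK cells were all detected, 5 of 5 in each list. Of the pancreas markers Prss1 was at 0 in every library, while Cela1 was at 2.07 to 4.00 CPM and Cpa1 had 3 to 12 counts. Pnlip had counts only in WT replicate 1 and Ins2 only in Top3b-KO replicate 2. The summed neutrophil markers ran from 590 to 1044 CPM in WT and from 418 to 1410 CPM in the knockout, while the 5 erythroid markers summed to 957 to 1660 CPM in WT, highest in replicate 2, and to 780 to 1121 CPM in the knockout. All 5 erythroid genes had a log2 fold change below 0 (median -0.38), as did 9523 of the 18716 tested genes. Of these 5, 0 passed an adjusted p of 0.05 by edgeR or had an unadjusted p under 0.05. All 5 genes were also below 0 for B cells (median -0.032), red pulp macrophages (-0.11) and NK cells (-0.087). For T cells all 5 were above 0 (0.074), and the neutrophil genes were split. Hmox1 (-0.55), Klrb1c (-0.28) and Cd3e (0.17) had an unadjusted edgeR p under 0.05, as did 5.52% of all tested genes. The part of cell composition in the results below was not tested. In a mixed tissue, fewer cells that express a gene and less of its RNA per cell cannot be told apart.

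No clock gene passed the test between the genotypes. With the quasi-likelihood test of edgeR and Benjamini-Hochberg adjustment over all genes, 0 of the 10 had an adjusted p under 0.05, where 0.0107% of all tested genes did. At an unadjusted p under 0.05 the count was also 0 of 10, against 5.52% of all tested genes, and both DESeq2 and limma-voom gave 0 of 10 at either threshold. The log2 fold change of Top3b-KO against WT ran from -0.083 in Cry2 to 0.18 in Per2, with a median of 0.029 over the 10 genes and of -0.0029 over all tested genes. It was above 0 for 6 of the 10 genes and for 49.1% of all tested genes. The 95% intervals give the size of change that remained compatible with these libraries. For 8 of the 10 genes the interval lay wholly within a 1.3-fold change in either direction, and for all 10 within 1.5-fold. The widest bound was that of Nr1d1, at 0.49 on the log2 scale or 1.41-fold.

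**Figure D1:**
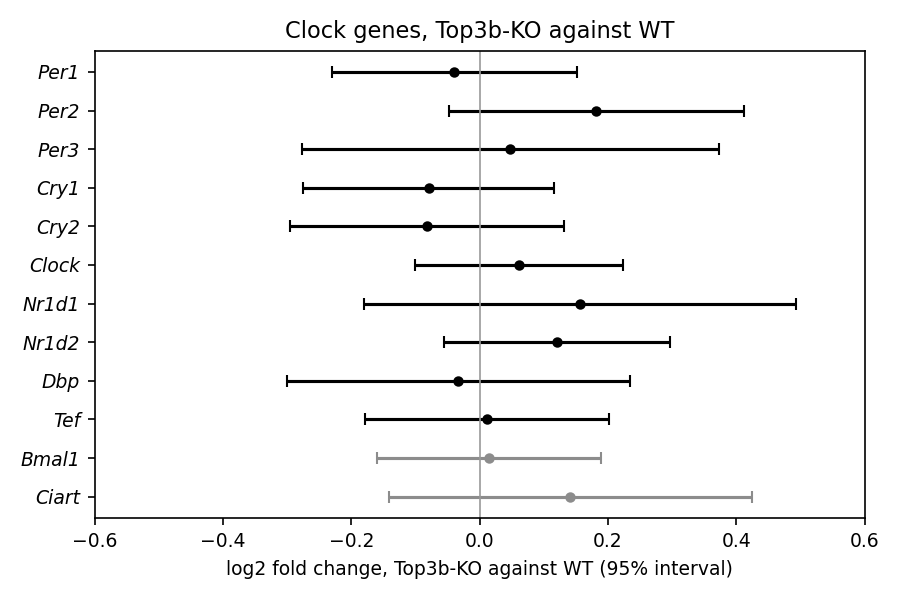
Log2 fold change of Top3b-KO against WT on the horizontal axis for the 10 clock genes (black) and for Bmal1 and Ciart (grey), with points for the edgeR estimate and bars for its 95% interval, from 3 libraries a genotype. Every interval crosses 0, and those of Nr1d1, Per2 and Ciart are the ones that reach beyond 0.38 (1.3-fold).

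Per1, the period gene that also responds acutely to glucocorticoids and other stimuli, had the highest level of the group per length of exon. It was at 149, 137 and 122 CPM in WT replicates 1 to 3 and at 148, 115 and 134 CPM in the Top3b-KO replicates. The genotypes overlapped, and both the highest and the lowest values were shared out between them: WT replicate 1 and Top3b-KO replicate 1 were high, and WT replicate 3 and Top3b-KO replicate 2 low. The means were 136 ± 13.5 CPM in WT and 132 ± 16.5 CPM in the knockout (SD, n = 3), with a log2 fold change of -0.04 (95% interval -0.23 to 0.15, edgeR adjusted p = 0.98).

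Per2, a core repressor of the loop, had the largest log2 fold change of the 10 over all 6 libraries. That rank passed to Nr1d1 without WT replicate 2 (0.27 against 0.22) or knockout replicate 2 (0.22 against 0.16), and to Nr1d2 without WT replicate 3 (0.16 against 0.11). Its levels were 15.6, 15.7 and 13.3 CPM in WT and 17.2, 17.4 and 15.6 CPM in the knockout. Top3b-KO replicates 1 and 2 lay above every WT library, while Top3b-KO replicate 3 lay among them. The log2 fold change was 0.18 (95% interval -0.048 to 0.41, edgeR unadjusted p = 0.11 and adjusted p = 0.91). Per3, the third period gene and the least abundant per length, was at 7.30, 8.13 and 5.72 CPM in WT and 7.45, 7.64 and 6.47 CPM in the knockout. Its lowest value, in WT replicate 3, rested on 91 counts, and its log2 fold change was 0.048 (95% interval -0.28 to 0.37).

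The cryptochromes, which complete the repressor complex with the PER proteins, had slightly lower means in Top3b-KO. Cry1 was at 35.6, 31.5 and 29.8 CPM in WT and 32.2, 31.1 and 27.8 CPM in the knockout, with overlapping genotypes and a log2 fold change of -0.08 (95% interval -0.27 to 0.12). Cry2 was at 16.9, 17.0 and 16.0 CPM in WT and 15.9, 15.8 and 15.4 CPM in the knockout. It was the single clock gene whose genotypes did not overlap, 1 of 10, where 11.0% of all tested genes had no overlap. It was on the lower side, as were 5.63% of all tested genes, and 0 of 10 were on the higher side, against 5.39%. The difference was small, at a log2 fold change of -0.083 (95% interval -0.30 to 0.13, edgeR adjusted p = 0.96). The spread of Cry2 within genotypes, a coefficient of variation of 2.74%, was below the 6.23% that counting error alone gives at its counts of 152 to 398.

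Clock encodes the DNA-binding partner of Bmal1 in the activating complex. It was at 62.7, 61.4 and 69.4 CPM in WT and 68.5, 70.8 and 61.9 CPM in the knockout, a log2 fold change of 0.061 (95% interval -0.10 to 0.22). The 3 high libraries, WT replicate 3 and Top3b-KO replicates 1 and 2, came from both genotypes. Nr1d2 had its 3 highest values in the same libraries, at 41.6, 42.4 and 45.6 CPM in WT and 47.9, 50.3 and 41.9 CPM in the knockout. Its log2 fold change was 0.12 (95% interval -0.055 to 0.30, edgeR adjusted p = 0.91).

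Nr1d1, the REV-ERB alpha gene, is a strongly rhythmic member of the group in peripheral tissues. It was at 5.29, 6.29 and 4.71 CPM in WT and 6.02, 5.66 and 6.68 CPM in the knockout, on 66 to 147 counts. Top3b-KO replicate 3 was highest and WT replicate 3 lowest, with WT replicate 2 above the other 2 knockout libraries, so the genotypes overlapped. The log2 fold change was 0.16 (95% interval -0.18 to 0.49, edgeR adjusted p = 0.95).

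Dbp, another output gene of large daily amplitude, was at 10.8, 13.7 and 10.8 CPM in WT and 11.9, 10.8 and 12.04 CPM in the knockout. WT replicate 2 stood above the other 5 libraries, which lay between 10.8 and 12.04 CPM, and the log2 fold change was -0.033 (95% interval -0.30 to 0.23). Tef, from the same bZIP family, was at 36.9, 36.6 and 33.8 CPM in WT and 39.0, 32.0 and 37.4 CPM in the knockout, a log2 fold change of 0.011 (95% interval -0.18 to 0.20). Tef shared its 2 lowest libraries, WT replicate 3 and Top3b-KO replicate 2, with Per1.

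Per length of exon the genes could be ordered by level. Exon lengths were the union of all annotated exons in GENCODE M21, and the scale is CPM per kilobase. Per1 led with 20.4 to 26.4 over the 6 libraries (median 24.1), well clear of Cry1 at 8.33 to 10.7 (median 9.37) and Nr1d2 at 7.69 to 9.31 (median 8.14), which overlapped each other. Clock followed at 4.48 to 5.16, overlapping Tef at 4.06 to 4.96, and Tef overlapped Dbp at 3.60 to 4.58. Bmal1, placed beside them, was at 4.47 to 5.21 and overlapped its partner Clock. Per2 at 2.27 to 2.98 and Cry2 at 2.43 to 2.69 overlapped, then came Nr1d1 at 1.53 to 2.17, and Per3 was lowest at 0.595 to 0.846 CPM per kilobase. The period genes thus stood at the top, in the lower part and at the bottom of the order.

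**Figure D2:**
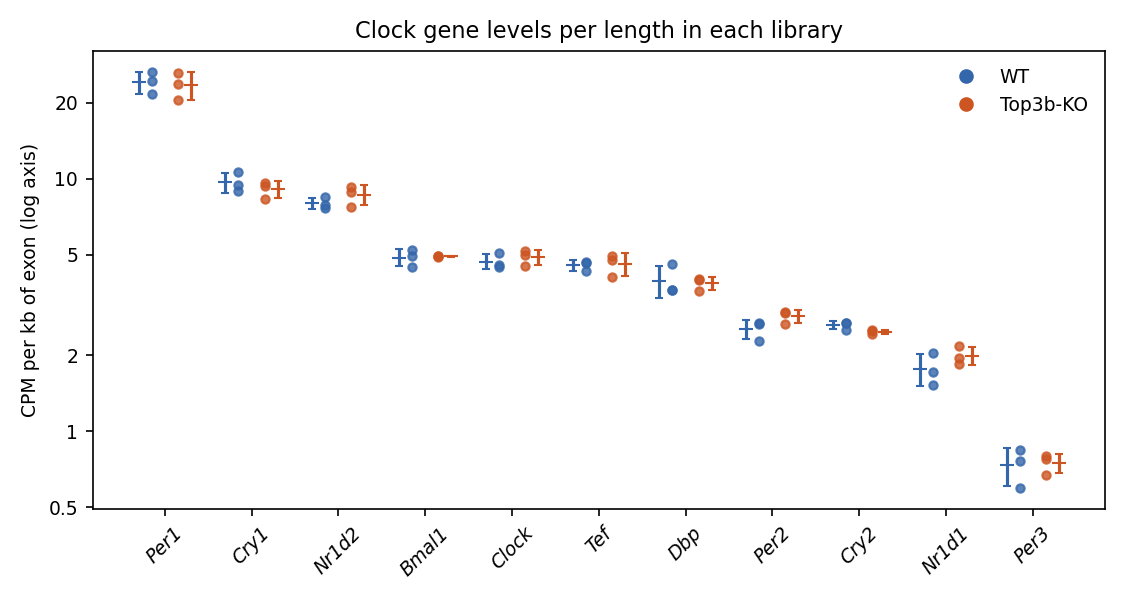
Level of each clock gene and of Bmal1 in CPM per kilobase of exon (log axis), ordered by mean, with 1 point per library (WT blue, Top3b-KO orange) and bars for mean ± SD over 3 libraries. Per1 lies between 20.4 and 26.4, above every other gene, and Per3 between 0.595 and 0.846, below every other gene. The ranges of the genotypes overlap for each gene except Cry2.

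Some of these genes share exon bases with a gene on the opposite strand, and the sources used here give no strand setting for the counting. Dbp shares 539 exon bases, 18.0% of its exon length, with Sphk2, a sphingosine kinase gene at 50.2 to 65.9 CPM, so reads from that stretch cannot be assigned with certainty. Nr1d1 shares 263 bases, 8.55%, with the thyroid hormone receptor gene Thra, which was at 15.5 to 17.4 CPM. Cry2 shares 295 bases (4.67%) with D930015M05Rik, at 0.832 to 1.10 CPM, and Tef 193 bases (2.45%) with Gm17597, at 0.258 to 0.524 CPM. Neither Sphk2 (log2 fold change -0.13, edgeR adjusted p = 0.91) nor Thra (0.042, edgeR adjusted p = 0.98) passed the test.

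The opposing arms of the clock were then set against each other within each library. Bmal1, high when the output genes are low, was at 39.2, 37.1 and 33.6 CPM in WT and 36.9, 37.1 and 37.0 CPM in the knockout (log2 fold change 0.015, 95% interval -0.16 to 0.19, edgeR adjusted p = 0.99). A ratio of counts to Bmal1 needs no scaling for depth. For Nr1d1 it was 0.135, 0.170 and 0.140 in WT and 0.163, 0.153 and 0.180 in the knockout. The lowest and highest had exact (Clopper-Pearson) 95% intervals of 0.106 to 0.170 and of 0.137 to 0.235, which overlap and which cover counting error only. For Dbp the ratio was 0.277, 0.369 and 0.321 in WT and 0.322, 0.291 and 0.325 in the knockout, with exact intervals of 0.232 to 0.329 at the lowest and 0.314 to 0.433 at the highest. Both of those libraries were WT, and their intervals overlapped only between 0.314 and 0.329. For Per2 the ratio was 0.397, 0.422 and 0.396 in WT and 0.466, 0.470 and 0.421 in the knockout, with exact intervals of 0.336 to 0.465 at the lowest and 0.419 to 0.527 at the highest. For Per1 it was 3.79, 3.70 and 3.62 in WT and 4.01, 3.10 and 3.61 in the knockout. Its extremes were both knockout libraries, replicate 1 (exact interval 3.72 to 4.31) and replicate 2 (2.88 to 3.35). Of the 4 ratios this was the one whose extreme intervals did not overlap. Such intervals narrow as counts rise, and Per1 had 1322 to 3613 counts a library, against 66 to 147 for Nr1d1 and 119 to 290 for Dbp. The overlap of intervals therefore does not rank the 4 ratios by their spread over libraries.

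A phase index summarised the arms as the mean log2 CPM of Per1, Per2, Per3, Nr1d1, Nr1d2, Dbp and Tef minus that of Bmal1, Npas2 and Clock. It was 1.02, 1.33 and 0.99 in WT and 1.09, 0.94 and 0.96 in the knockout, with means of 1.11 ± 0.183 and 1.00 ± 0.0823 (SD, n = 3), a difference of -0.11. The highest value was WT replicate 2, and the other 5 libraries lay between 0.94 and 1.09. Npas2, a relative of Clock that can replace it, had only 4 to 11 counts a library and fell below the filter. Without Npas2 the index was -1.28, -1.13 and -1.39 in WT and -1.19, -1.32 and -1.20 in the knockout, so WT replicate 2 was still highest but close to knockout replicates 1 and 3, and the difference between genotypes was 0.028. With Npas2 but without WT replicate 2 the difference was -0.0095. No test was made of this index, since its genes were chosen with results of these data known.

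The libraries did not order the clock genes in 1 common way. WT replicate 3 was below the gene mean for 8 of the 10 genes, the exceptions being Clock and Nr1d2, and it was also the lowest library for Bmal1, at 0.13 below the mean on the log2 scale. Per3, Nr1d1 and Per2 were lower there by 0.31, 0.28 and 0.24. Top3b-KO replicate 1 was above the mean for 9 of 10 genes, all but Cry2, by up to 0.15. In Top3b-KO replicate 2 Per1 and Tef were below their means by 0.21 and 0.17 while Nr1d2 and Per2 were above theirs by 0.17 and 0.15. Nr1d1, Dbp and the 3 Per genes all stood below their means in WT replicate 3, where Bmal1 was also below its mean, and all above in Top3b-KO replicate 1, by 0.030 to 0.15, where Bmal1 was at 0.0061, close to its mean. In WT replicate 2 Per1, Per3, Nr1d1 and Dbp were above their means by 0.042 to 0.24. Per2 at -0.0060 and Bmal1 at 0.012 were close to theirs in that library. In WT replicate 1 and Top3b-KO replicates 2 and 3 these 5 genes, Nr1d1, Dbp and the 3 Per genes, were on both sides of their means.

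**Figure D3:**
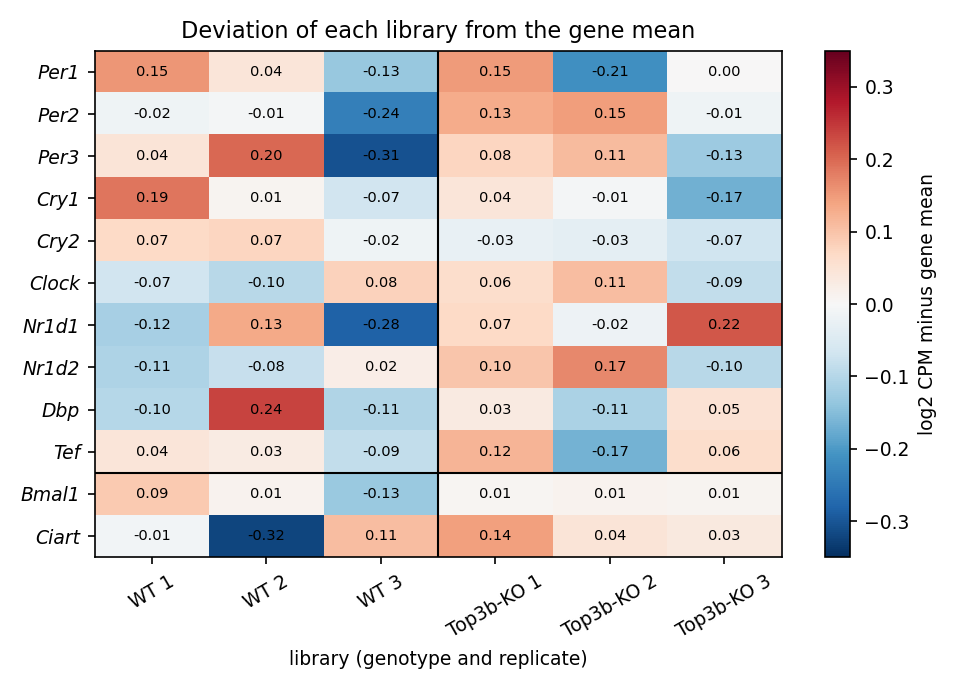
Deviation of each library from the gene's mean over 6 libraries in log2 CPM, printed in each cell, for the 10 clock genes and, below the line, Bmal1 and Ciart, with WT libraries left and Top3b-KO right of the vertical line. The deviations run from -0.32 (Ciart, WT replicate 2) to 0.24 (Dbp, WT replicate 2), and neither genotype forms a block of one colour across the genes.

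The spread of the clock genes over all 6 libraries was close to that of other genes. The ratio of the highest to the lowest library ran from 1.10 in Cry2 to 1.42 in Per3 and Nr1d1, with a median of 1.28, against 1.34 over all tested genes and 1.23 over the 11242 genes at least as abundant as Nr1d1. Expressed genes were also sorted into 20 bins of mean CPM, with about 936 genes in a bin. Within its bin, the log2 range of Per1 (0.37, bin median 0.215) was at percentile 90.5, the highest of the 10, and that of Cry2 (0.14, bin median 0.346) at percentile 1.82, the lowest. The other 8 lay between percentiles 37.5 and 71.5. Dbp and Nr1d1, the output genes best known for a large daily swing, were at percentiles 37.5 and 40.5. The coefficient of variation of Per1 within genotypes was 11.3%, above the 2.16% of counting error, whereas that of Nr1d1 was 11.6% against 10.4%.

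**Figure D4:**
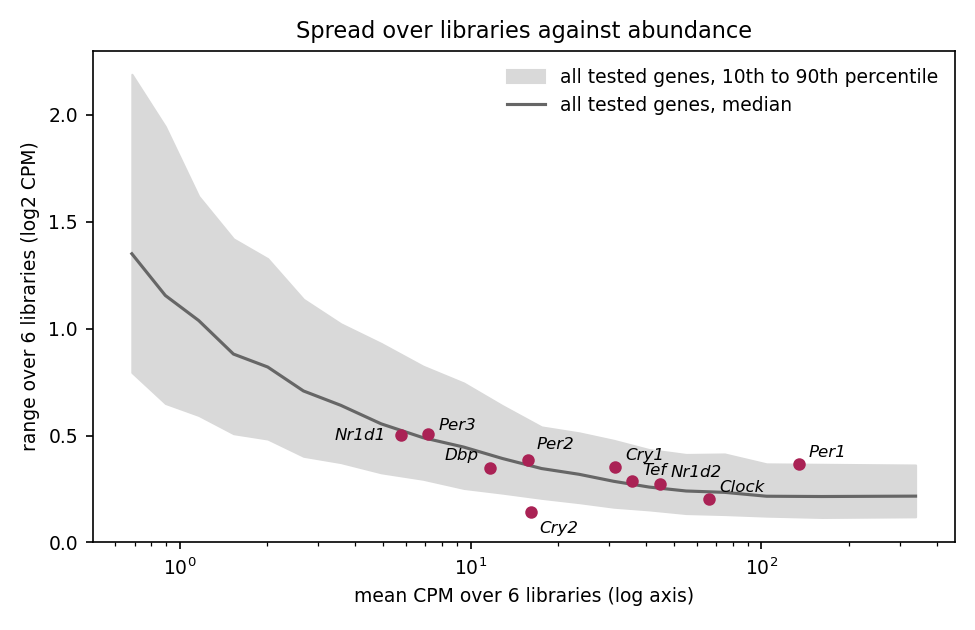
Range over the 6 libraries (highest minus lowest log2 CPM) against mean CPM on a log axis, with a point for each clock gene, a grey line for the median and a band from the 10th to the 90th percentile of all tested genes in 20 bins of abundance. Per1 lies at the upper edge of the band and Cry2 below it, and the other 8 genes lie inside it.

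Because Per1 is also induced by glucocorticoids and by acute stimulation, its values were set beside lists of such genes. The summed level of 8 immediate early genes (Fos, Fosb, Jun, Junb, Egr1, Ier2, Dusp1 and Nr4a1) was 1863, 1772 and 1517 CPM in WT and 1744, 1638 and 1651 CPM in the knockout. The 3 libraries with the highest sums, WT replicates 1 and 2 and Top3b-KO replicate 1, were the 3 with the most Per1. The 2 lowest, WT replicate 3 and Top3b-KO replicate 2, were the 2 with the least. The sum in Top3b-KO replicate 2 (1638 CPM) was barely below that in Top3b-KO replicate 3 (1651 CPM), whereas Per1 was at 115 and 134 CPM there. The sum rests most on Fosb (330 to 432 CPM) and Junb (343 to 439 CPM), and not every member followed it: Dusp1 was highest in Top3b-KO replicate 2 (198 CPM), and Egr1 in WT replicate 3 (149 CPM) was second only to Top3b-KO replicate 1 (165 CPM). The summed level of 6 glucocorticoid-responsive genes (Fkbp5, Tsc22d3, Zbtb16, Ddit4, Sgk1 and Klf9) was 511, 527 and 607 CPM in WT and 491, 582 and 592 CPM in the knockout, and the sum was lowest in the 3 libraries with the most Per1. That sum is mostly Tsc22d3 (238 to 323 CPM), and single members went other ways: Fkbp5 was highest in WT replicate 1 (51.7 CPM) and lowest in WT replicate 3 (42.8 CPM), and Klf9 was highest in the same 3 libraries as Per1. Of the glucocorticoid genes 0 of 6, and of the immediate early genes 0 of 8, passed an adjusted p of 0.05 by edgeR. Over all tested genes the share was 0.0107%. At an unadjusted p under 0.05 the counts were 0 and 1, beside 5.52% of all tested genes. The 1 gene was Junb (log2 fold change -0.20, edgeR adjusted p = 0.84). The part of either response in the Per1 values was not tested.

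**Figure D5:**
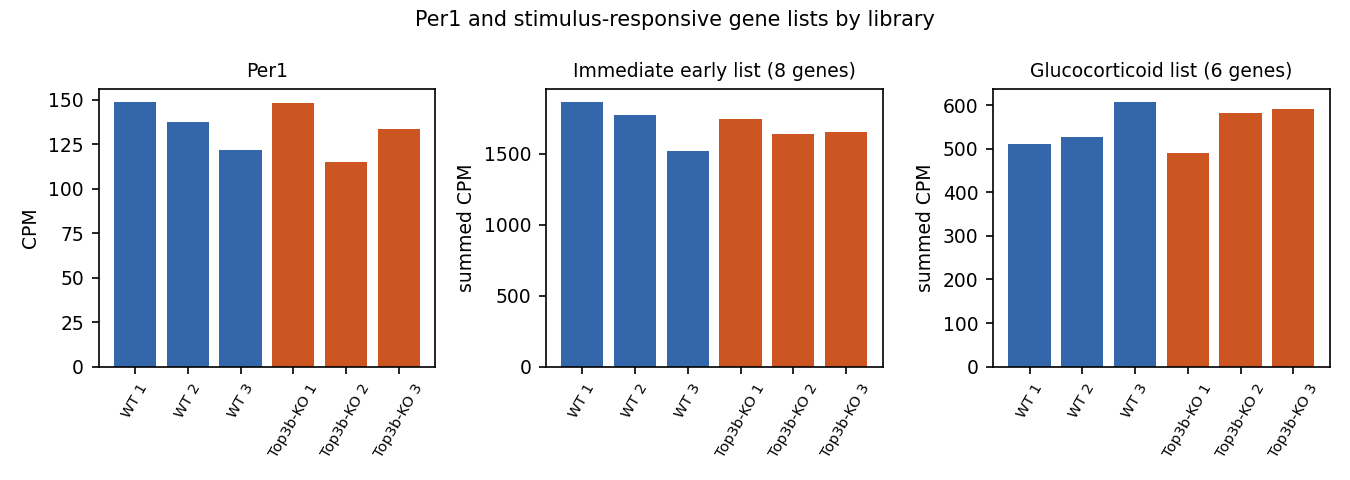
CPM of Per1 (left) and summed CPM of the immediate early list (middle) and of the glucocorticoid-responsive list (right) in each library, WT in blue and Top3b-KO in orange, with axes from 0 and 1 bar per library. Per1 and the immediate early sum are both lowest in WT replicate 3 and Top3b-KO replicate 2, while the glucocorticoid sum is lowest in Top3b-KO replicate 1 and WT replicate 1. The immediate early sums of Top3b-KO replicates 2 and 3 are nearly equal, at 1638 and 1651 CPM.

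Of 30 other genes of the clock pathway 27 were tested, and Npas2, Rorb and Fbxl21 fell below the filter. None passed an adjusted p of 0.05 by edgeR (0 higher and 0 lower), and 1 had an unadjusted p under 0.05. The median log2 fold change was 0.0024, with 14 above 0 and 13 below, beside 49.1% of all tested genes above 0. That single gene was Bhlhe41, a repressor that competes for E-boxes, at 17.1, 22.3 and 24.8 CPM in WT and 17.3, 16.7 and 14.5 CPM in the knockout. WT replicate 1 lay among the knockout libraries, and the log2 fold change was -0.39 (95% interval -0.66 to -0.13, edgeR unadjusted p = 0.0058 and adjusted p = 0.69). Its close relative Bhlhe40 had a log2 fold change of 0.043. The next by p-value were the corepressor Ncor1, which works with the REV-ERB proteins (0.11), Nono, a PER-binding protein (0.081), and the casein kinase Csnk1e, which marks PER proteins for degradation (-0.12), with edgeR adjusted p of 0.91, 0.92 and 0.93. The genotypes did not overlap for 4 of the 27 (14.8%), Ncor1 and Ddb1 higher and Noct and Hdac3 lower in Top3b-KO, beside 11.0% of all tested genes. Ciart, an E-box-driven repressor of Clock and Bmal1, was at 9.62, 7.74 and 10.4 CPM in WT and 10.7, 9.98 and 9.91 CPM in the knockout (log2 fold change 0.14, 95% interval -0.14 to 0.42). It was lowest in WT replicate 2, the library in which Dbp was highest. Its promoter window held 3 E-boxes, at 116, 58 and 44 bases before the start.

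The genes whose pattern over the 6 libraries was most like that of Dbp, by root mean square difference of centred log2 CPM among 12946 genes, were Lppos, Prkag2os1, Abi3, Cacna1e and Mkrn1, at 0.030 to 0.047. For Nr1d1 they were Dmd, Sall2, Fndc9, Muc5b and Tab1, at 0.039 to 0.059. None of these 10 was on the list of clock pathway genes. Among the 9 other clock genes Tef was nearest to Dbp at 0.11 and Dbp nearest to Nr1d1 at 0.12. The median over the 12946 genes was 0.171 for Dbp and 0.204 for Nr1d1. Cry1, Clock and Nr1d2 were farther than that median from both, at 0.18, 0.188 and 0.191 for Dbp and 0.225, 0.221 and 0.214 for Nr1d1. The nearest of 9 genes can lie below a median without being unusual. With so many genes and 6 libraries, the close matches named here are a description only.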

How the data were processed

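Total RNA of 6 splenocyte libraries was sequenced after ribosomal RNA depletion. The authors deposited 1 table of expected counts per gene symbol, unscaled. Reads were aligned with STAR to mm39, per the submitters' processing notes, and no source used here gives the counting tool, strand setting or annotation release. Values of 72 symbols, none of them a clock gene, were not whole within 1e-06, and all values were rounded.

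Genes were kept by filterByExpr and tested with edgeR 4.0.16 (R 4.3.3): TMM factors, robust quasi-likelihood F test, genotype as the only term, two-sided, Benjamini-Hochberg adjustment over all 18716 genes, threshold 0.05. Intervals of 95% came from the log2 fold change, its F statistic and degrees of freedom. Log2 CPM used a prior count of 0.5. The fit was also run on counts simulated from dispersions estimated in these libraries. Such counts follow the model by design, so they cannot show that it suits these libraries. A floor of 3 counts is 0.119 to 0.303 CPM, for counting error only. Alternatives used limma 3.58.1, DESeq2 1.42.0, other scalings and filters, a replicate block and leaving out each library.

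Named genes were all 10 members, a fixed list of 30 pathway genes (Bmal1, Npas2, Ciart and the 4 smallest p-values), the 5 genes most like Dbp and like Nr1d1 with a mean of at least 1 CPM and no predicted-gene symbol, overlapping genes and 2 stimulus lists. Genes without overlap between genotypes were named after their values were seen. Members and lists were chosen with earlier results of these data known. Marker lists for stromal and endothelial cells (summed 240 to 271 CPM) and pancreas (2.26 to 4.39 CPM) were read too. The R-loop assay named in the design was not analysed here.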

Additional observations from a re-analysis of the deposited data

How the results depend on the processing

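The count of clock genes past an adjusted p of 0.05 was 0 under all 13 alternatives, which were RLE scaling, no filter, a stricter filter (1 CPM in 3 libraries), DESeq2, limma-voom, robust=FALSE, the replicate block and leaving out each of 6 libraries. The lowest adjusted p of any clock gene in them was 0.43, for Nr1d2 without WT replicate 3. The replicate block gave 0 clock genes (lowest adjusted p 0.83) but 41 genes over the whole table, against 2 without it. Deviations from the genotype mean had correlations of 0.149, -0.00511 and 0.00332 between libraries with the same number, 1 to 3. Between libraries with different numbers they ran from -0.0797 to 0.0779. These values do not settle whether the numbers pair the libraries. The block was kept as an alternative because the labels do not say that a number marks a shared animal, litter or day. Over the whole table DESeq2 gave 7 genes, no filter 44, limma-voom and robust=FALSE 1 each, and leaving out a library 1 to 32, the highest being 32 without WT replicate 3, followed by 9 when Top3b-KO replicate 1 was left out.

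The direction of 6 clock genes was the same in all 13. Their size was less steady when 1 library was left out, at 0.11 to 0.22 for Per2, -0.13 to -0.0061 for Cry1, -0.11 to -0.067 for Cry2, 0.025 to 0.12 for Clock, 0.061 to 0.27 for Nr1d1 and 0.068 to 0.19 for Nr1d2. For the other 4, whose fold changes were near 0, it changed when 1 library was left out, over ranges of log2 fold change of -0.12 to 0.060 for Per1, -0.083 to 0.16 for Per3, -0.094 to 0.088 for Dbp and -0.048 to 0.10 for Tef. Per1 changed when WT replicate 1 (0.027) or knockout replicate 2 (0.060) was left out, Per3 without WT replicate 3 (-0.083), Dbp without WT replicate 2 (0.088) or knockout replicate 2 (0.026), and Tef without WT replicate 3 (-0.030), knockout replicate 1 (-0.048) or knockout replicate 3 (-0.012). The phase index difference was 0.028 without Npas2, which rests on 4 to 11 counts, and -0.17 to -0.0095 when a library was left out. For these shifts the cause was not tested. Scaling by RLE or by total counts, chosen after seeing the data, left 1 clock gene without overlap. Depth limits mainly Nr1d1 and Per3, at 64 to 193 counts a library.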
